A study of Mus musculus with 2 samples.

Results

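The Zfp genes of the mouse were examined here for YY1 at their promoters. They were taken as the autosomal protein-coding genes of the GENCODE M21 basic annotation whose symbol is Zfp followed only by digits, with Zfp42 left out, which gave 357 genes of 20807. A gene was called bound when the summit of a YY1 peak lay within 1000 bp of one of its transcript starts. It was called isolated when no other Zfp gene lay within 100 kb of its gene body, and clustered otherwise, which gave 153 isolated and 204 clustered genes.

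The data are 1 YY1 ChIP-seq library, in which DNA held by YY1 was recovered with an antibody (sc-1703) and sequenced. The library came from muscle stem cells (MuSCs) mixed from 20 Ctrl mdx mice, of the genotype Pax7CreERT2/R26YFP with both Yy1 alleles intact (Yy1+/+) on the mdx background, which lacks functional dystrophin. The Cre is driven by Pax7 and is induced by tamoxifen in the study, and the YFP it switches on served to sort the cells. Their age and the tamoxifen timing for this pool are not given in the sources used here. The sample labels describe cultured cells and the design text names wild-type cells, whereas the methods describe freshly isolated mdx cells. One background library, called input in the labels and IgG in the methods, was not analysed on its own. The peak list measures no expression, so the labelled cell type could not be checked against marker genes, and with 1 library no value has a spread between mice.

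Zfp genes encode zinc-finger proteins, most of them of the C2H2 type, in which pairs of cysteines and histidines hold a zinc ion in each finger and arrays of fingers read DNA sequence. Many carry a KRAB domain at the amino end, which recruits the co-repressor TRIM28 and, through it, the histone methyltransferase SETDB1, and these KRAB proteins are best known for silencing retroelements. KRAB genes multiplied by tandem duplication and therefore often stand in clusters, while zinc-finger genes without KRAB are more often single. YY1 is itself a C2H2 zinc-finger protein that binds the motif AANATGGC and activates or represses promoters according to its partners.

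Sequences under bound promoters are given as examples. Shown first are the 101 bases centred on the summit (50 either side) for 3 isolated and 2 clustered genes, taken from the top by fold enrichment among those whose window holds no annotated UTR. The strongest clustered peaks are therefore not among them. Each is from GRCm38, read on the strand of its gene, with every CG dinucleotide in capitals. The isolated genes are Zfp41 (chr15:75616507-75616607, plus strand), Zfp710 (chr7:80026984-80027084, plus strand) and Zfp653 (chr9:22071372-22071472, minus strand).
Zfp41: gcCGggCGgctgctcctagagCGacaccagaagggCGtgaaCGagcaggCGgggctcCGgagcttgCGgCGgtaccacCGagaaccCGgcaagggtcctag
Zfp710: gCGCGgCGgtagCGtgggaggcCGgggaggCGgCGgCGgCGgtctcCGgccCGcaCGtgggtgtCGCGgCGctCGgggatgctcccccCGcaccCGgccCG
Zfp653: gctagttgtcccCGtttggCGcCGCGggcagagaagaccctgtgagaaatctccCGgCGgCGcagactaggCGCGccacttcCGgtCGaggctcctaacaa
The clustered genes are Zfp719 (chr7:43579501-43579601, plus strand) and Zfp768 (chr7:127345602-127345702, minus strand).
Zfp719: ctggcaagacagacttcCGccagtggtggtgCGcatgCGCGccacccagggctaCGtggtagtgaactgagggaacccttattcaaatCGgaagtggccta
Zfp768: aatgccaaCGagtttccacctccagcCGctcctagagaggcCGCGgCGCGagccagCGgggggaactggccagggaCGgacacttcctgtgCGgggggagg
CG dinucleotides numbered 11 at Zfp41, 19 at Zfp710 and 11 at Zfp653, against 6 at Zfp719 and 9 at Zfp768. AANATGGC, searched on both strands, occurred in 0 of these 5 windows, and so did its core ATGGC.

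AANATGGC was found within 100 bp of the summit at 6 bound genes. Anywhere in the peak it occurred at 10 of 85 bound genes (11.8%). Only the sites within 100 bp of the summit are shown. Each is printed with 11 bases on either side, on the strand that reads AANATGGC, with the motif in capitals. Zfp207 has a pair of them.
Zfp207, chr11:80383195-80383224, plus strand: ttaaccccattAAGATGGCggcagcgcccg
Zfp207, chr11:80383306-80383335, minus strand: gaaacagacacAAAATGGCcgacaccctcg
Zfp592, chr7:80993665-80993694, minus strand: gcgggagccacAACATGGCgacggcggtgg
Zfp668, chr7:127875756-127875785, plus strand: caaaagcccggAACATGGCggactctagga
Zfp644, chr5:106696316-106696345, minus strand: ccgcacaggctAAGATGGCggctgctgccg
Zfp341, chr2:154613358-154613387, plus strand: gcggcagctccAAGATGGCgcaggcgatct
Zfp292, chr4:34882904-34882933, minus strand: agcgggctgcgAAGATGGCggacgatgagg
The middle of the site (its base 4 on the plus strand) lay 13 bp from the summit at Zfp292, 34 bp at Zfp644 and 36 bp for the nearer site of Zfp207. It lay 51 bp away at Zfp668, 83 bp at Zfp592 and 92 bp at Zfp341. At Zfp592 and Zfp341 the site stood 2 bp from an annotated start, the site of Zfp207 nearer the summit 11 bp, and that of Zfp292 12 bp.

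The neighbours Zfp790 and Zfp940 on chromosome 7 give the contrast between a bound and an unbound promoter inside a cluster. Both carry the KRAB pattern described below. Their promoters are from the RefSeq promoter table for GRCm38.p6, without the bases that the annotation counts as UTR, and with CG in capitals. Zfp790 (chr7:29815822-29816113, plus strand) had a YY1 summit 73 bp upstream of its start, at position 29816041, and Zfp940 (chr7:29853670-29853898, minus strand) had none, its nearest summit being 37.6 kb from a start.
Zfp790: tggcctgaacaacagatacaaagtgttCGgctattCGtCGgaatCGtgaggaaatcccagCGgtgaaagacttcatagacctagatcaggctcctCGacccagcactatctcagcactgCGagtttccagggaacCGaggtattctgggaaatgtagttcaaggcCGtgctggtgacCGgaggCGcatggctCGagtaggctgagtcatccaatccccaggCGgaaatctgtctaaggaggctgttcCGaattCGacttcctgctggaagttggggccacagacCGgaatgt
Zfp940: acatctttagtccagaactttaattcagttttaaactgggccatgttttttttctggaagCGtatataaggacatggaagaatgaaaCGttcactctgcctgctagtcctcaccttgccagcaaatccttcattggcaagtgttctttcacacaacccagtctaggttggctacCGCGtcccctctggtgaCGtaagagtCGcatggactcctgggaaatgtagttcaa
CG dinucleotides numbered 16 in the 292 bases of Zfp790 and 6 in the 229 bases of Zfp940. The unbound Zfp940 promoter held 1 match to AANATGGC and the bound Zfp790 promoter held 0.

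YY1 summits were found at 85 of the 357 Zfp genes, or 23.8% (95% exact binomial interval 19.5 to 28.6). Among all autosomal protein-coding genes the share was 19.7%, and among those outside the Zfp list 19.6%, 4.20 percentage points lower than in the list (Newcombe interval 0.0348 to 8.91). The list as a whole thus stood close to the background. Its members were far from alike, however. Isolated genes were bound at 52 of 153, or 34% (26.5 to 42.1), and clustered genes at 33 of 204, or 16.2% (11.4 to 22.0). The difference was 17.8 points (8.78 to 26.8), a ratio of 2.10. Set against the other coding genes, isolated Zfp genes lay 14.4 points higher (7.32 to 22.2), while clustered genes differed by -3.44 points, with an interval from -7.89 to 2.26. These intervals cover counting error over the genes of 1 library only. Clustered genes can be near copies of one another and neighbours can share a peak, so the intervals are too narrow, and no test between genes was made.

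**Figure D1:**
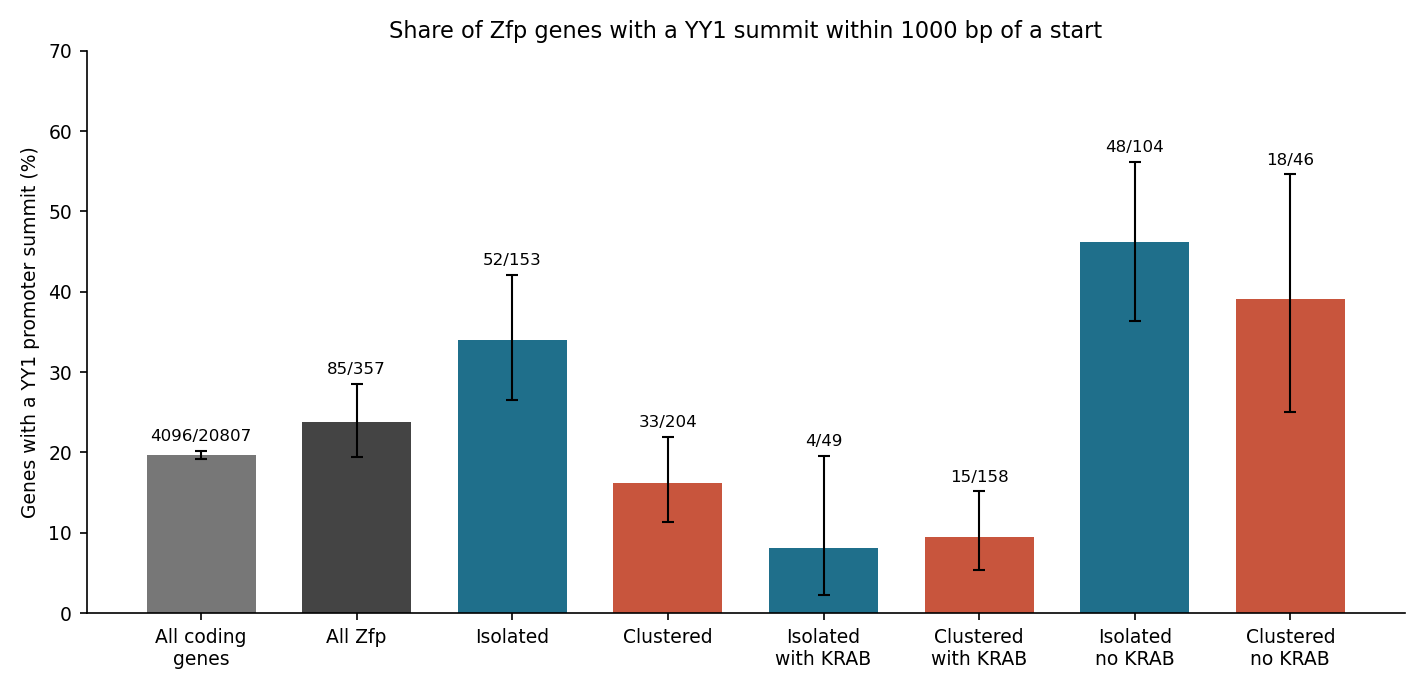
Percent of genes with a YY1 summit within 1000 bp of a transcript start, for all coding genes, all Zfp genes, and isolated and clustered Zfp genes with and without the KRAB pattern. Bars give the share, error bars the 95% exact binomial interval and labels the bound and total genes. The isolated bar stands above the clustered bar over all Zfp genes (34% and 16.2%), whereas within the KRAB genes both are low (8.16% and 9.49%).

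KRAB genes accounted for most of the clustered genes and few of the bound ones. A KRAB A box pattern was found in the longest coding sequence of 207 Zfp genes, 158 clustered and 49 isolated. Genes are called KRAB genes or genes without KRAB by this pattern alone. It can miss a KRAB domain, as at Zfp746, so the group without KRAB may hold further KRAB genes. YY1 was at 19 of the 207, or 9.18% (5.62 to 14), and at 66 of the 150 genes without the pattern, or 44.0% (35.9 to 52.3), a difference of 34.8 points (25.8 to 43.4). Within the KRAB genes, 4 of 49 isolated genes (8.16%, 2.27 to 19.6) and 15 of 158 clustered genes (9.49%, 5.41 to 15.2) were bound. The isolated share was here -1.33 points from the clustered one, with an interval from -8.78 to 10.3. Among genes without the pattern, 48 of 104 isolated genes (46.2%, 36.3 to 56.2) and 18 of 46 clustered genes (39.1%, 25.1 to 54.6) were bound, a difference of 7.02 points with an interval from -10.1 to 22.9. Within either protein class, then, the interval of the difference between isolated and clustered genes included 0, while the difference between the classes held among isolated genes (38 points, 23.6 to 48.7) and among clustered genes (29.6 points, 15.7 to 44.5). This split was made after the data were seen. Isolated means only that no other gene of the Zfp list was near. With any coding gene of 3 or more finger patterns counted as a neighbour, 49 of 130 isolated genes (37.7%) were bound. Of the clustered genes, 36 of 227 (15.9%) then were. The split by KRAB was not repeated under that rule, so isolated KRAB genes may stand near other finger genes. The 4 isolated KRAB genes with YY1 were Zfp661, Zfp619, Zfp1 and Zfp959, at fold enrichments of 5.38, 4.54, 5.05 and 5.56.

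The number of fingers moved with the same split. Of the genes with 1 to 5 finger patterns in their protein, 27 of 56 were bound (48.2%, 34.7 to 62), against 30 of 103 with 6 to 10 (29.1%, 20.6 to 38.9) and 27 of 183 with 11 or more (14.8%, 9.95 to 20.7). The 15 genes without a C2H2 pattern, which include the CCCH-type Zfp36, had 1 bound member, Zfp703. KRAB genes had a median of 12 fingers and genes without the pattern 7, so the parts of finger number and KRAB were not separated here.

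Other zinc-finger genes, which the symbol rule left out, were examined as a further set. They share the library and its peaks with the Zfp genes, and those near a Zfp gene share its locus. Among 276 coding genes with 3 or more finger patterns that are neither Zfp nor Zbtb genes, YY1 was at 45 of 151 with no finger gene within 100 kb (29.8%, 22.6 to 37.8) and at 9 of 125 with one (7.20%, 3.35 to 13.2), a difference of 22.6 points (13.6 to 31.0). With the KRAB pattern the share was 3 of 92 (3.26%, 0.678 to 9.23), and without it 51 of 184 (27.7%, 21.4 to 34.8). Those without KRAB were bound at 44 of 135 when alone (32.6%) and at 7 of 49 when near another finger gene (14.3%), 18.3 points apart (3.92 to 29.3), an interval that overlaps that of the Zfp genes without KRAB. The Zbtb genes, whose zinc-finger proteins carry a BTB domain in place of KRAB, were bound at 15 of 34 (44.1%, 27.2 to 62.1), which is 10.1 points from the isolated Zfp genes with an interval from -6.99 to 28.0.

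CpG content of the promoter followed binding in both classes. The observed over expected CpG ratio within 500 bp of the gene start had a median of 0.778 at bound and 0.539 at unbound Zfp genes, and of 0.663 at isolated and 0.545 at clustered genes. Where the ratio was 0.75 or more, 32 of 50 isolated genes (64.0%) and 17 of 29 clustered genes (58.6%) were bound, which differed by 5.38 points (-15.7 to 26.8). From 0.5 to 0.75 the shares were 15 of 58 (25.9%) and 13 of 91 (14.3%), and from 0.25 to 0.5 they were 4 of 30 (13.3%) and 3 of 72 (4.17%). Below 0.25, 1 of 15 isolated and 0 of 12 clustered genes were bound, and the latter allows a share of up to 26.5% by the exact interval. The ratio describes the gene start, whereas a summit may lie at any transcript start, and all 5 isolated genes bound below 0.5 had their summits outside the stretch measured. Counted at the gene start alone, 2 of 30 isolated (6.67%) and 2 of 72 clustered genes (2.78%) were bound from 0.25 to 0.5, and 0 of 15 and 0 of 12 below 0.25. From 0.5 to 0.75 they were then 13 of 58 (22.4%) and 13 of 91 (14.3%), and at 0.75 or more 32 of 50 (64.0%) and 16 of 29 (55.2%). With every transcript start counted, all coding genes rose across the same bins from 2.53% through 5.38% and 18.5% to 46.4%, and at the gene start alone from 0.241% through 2.44% and 17.4% to 46.3%. In the highest bin the Zfp genes, at 62%, stood 15.7 points above all coding genes (4.57 to 25.7), whereas from 0.5 to 0.75 they differed by 0.319 points (-5.24 to 7.42).

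**Figure D2:**
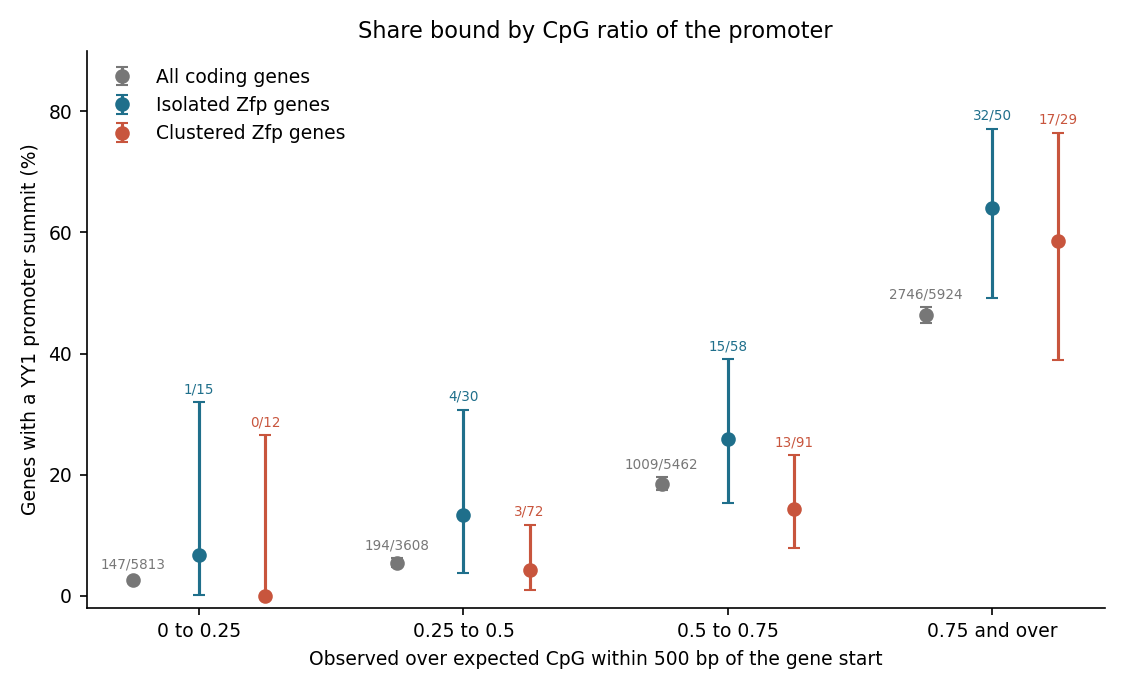
Percent of genes with a YY1 promoter summit in 4 bins of the observed over expected CpG ratio within 500 bp of the gene start. Points give the share and error bars the 95% exact binomial interval for all coding genes, isolated Zfp genes and clustered Zfp genes, with bound and total genes as labels. All 3 series rise towards the highest bin, where the shares are 46.4%, 64.0% and 58.6%.

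Genes with and without KRAB were also compared at similar CpG ratios. With a ratio of 0.5 or more, 18 of 108 KRAB genes (16.7%, 10.2 to 25.1) and 59 of 120 genes without KRAB (49.2%, 39.9 to 58.4) had YY1, a difference of 32.5 points (20.5 to 43.1). Their median ratios still differed, at 0.646 and 0.761. Among genes from 0.5 to 0.75, 10 of 91 with KRAB (11%, 5.40 to 19.3) and 18 of 58 without (31.0%, 19.5 to 44.5) were bound, 20.0 points apart (6.87 to 33.7). At 0.75 and over, 8 of 17 with KRAB (47.1%, 23.0 to 72.2) and 41 of 62 without (66.1%, 53.0 to 77.7) were bound, 19.1 points apart with an interval from -6.17 to 42.5. The gap was thus smaller in either bin than over both, and KRAB genes had the lower median ratio in each (0.630 against 0.678, and 0.798 against 0.864), so the parts of KRAB and CpG content were not fully separated. Over all coding genes the share was 18.5% from 0.5 to 0.75 and 46.4% at 0.75 and over. The first lay inside the intervals of KRAB genes but below that of genes without KRAB, and so did the second. Among the KRAB genes at 0.5 or more the share was 16.7% both for the 24 isolated and for the 84 clustered ones. With a ratio under 0.5, 1 of 99 KRAB genes (1.01%, 0.0256 to 5.50), Zfp738 with a ratio of 0.30, and 7 of 30 genes without KRAB (23.3%, 9.93 to 42.3) had YY1. At 7 of these 8 bound genes every summit lay more than 500 bp from the gene start, outside the stretch whose ratio was measured, and only Zfp13 had its summit inside it. Counted at the gene start alone (within 1000 bp), 0 of 99 KRAB genes, which allows a share of up to 3.66% by the exact interval, and 4 of 30 genes without KRAB (13.3%, 3.76 to 30.7) were bound. Of all coding genes under 0.5, 102 of 9421 were bound at the gene start (1.08%, 0.884 to 1.31), which lies within the interval of the KRAB genes. With every transcript start counted, 341 of the 9421 were bound.

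Distance between neighbours did not order the shares evenly. YY1 was at 19 of 84 genes whose nearest Zfp gene was up to 10 kb away (22.6%), at 13 of 75 from 10 to 30 kb (17.3%), and at 1 of 45 from 30 to 100 kb (2.22%, 0.0562 to 11.8). It was at 10 of 57 from 100 kb to 1 Mb (17.5%, 8.75 to 29.9) and at 42 of 96 beyond 1 Mb (43.8%, 33.6 to 54.3). The share over all coding genes, 19.7%, lay above the interval of the 30 to 100 kb bin, below that of the bin beyond 1 Mb and inside those of the remaining 3. Thus 42 of the 52 bound isolated genes had no other Zfp gene for over 1 Mb, beside 96 of all 153 isolated genes. The median CpG ratio was likewise lowest from 30 to 100 kb and highest beyond 1 Mb, at 0.619, 0.553, 0.388, 0.516 and 0.709 in the order of the bins. In runs of 3 or more genes, 9 of 56 first or last genes were bound (16.1%) and 16 of 106 inner genes (15.1%).

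**Figure D3:**
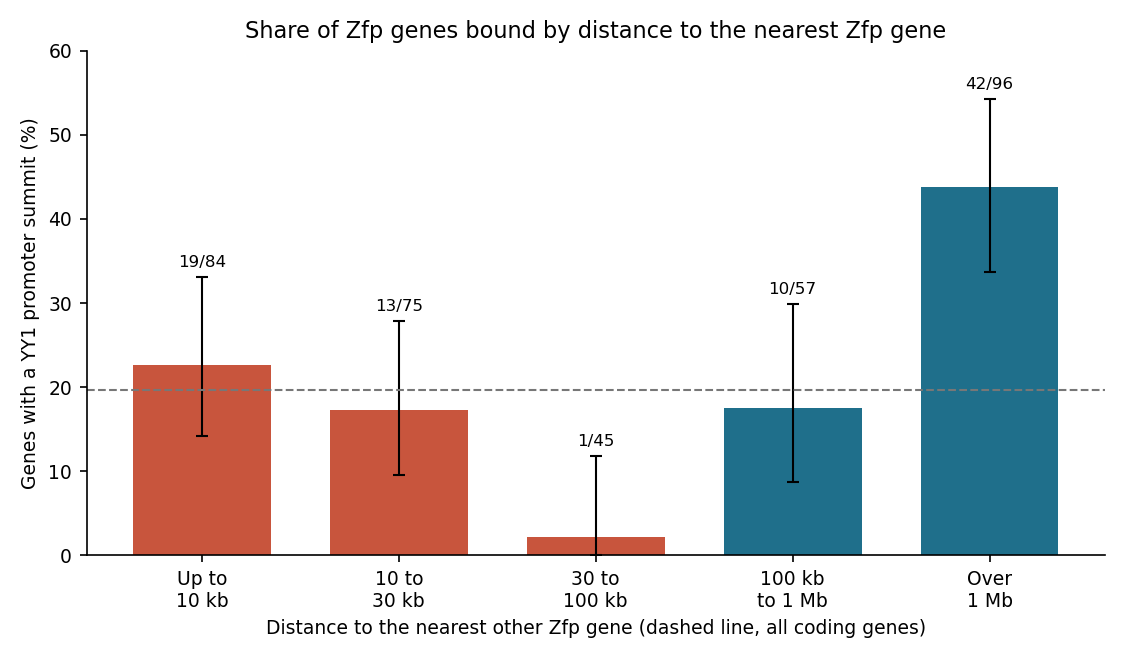
Percent of Zfp genes with a YY1 promoter summit by distance between the gene body and that of the nearest other Zfp gene. Bars give the share, error bars the 95% exact binomial interval, labels the bound and total genes, and the dashed line the share of all coding genes. The lowest bar is 30 to 100 kb (1/45) and the highest is over 1 Mb (42/96).

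The 204 clustered genes formed 49 clusters, of which 21 were pairs and 10 held 6 or more genes. No member was bound in 30 clusters, 1 in 11 clusters, and 2 or more in 8. Every member was bound in 2 pairs, Zfp692 with Zfp672 and Zfp213 with Zfp13. Genes in clusters of 6 or more were bound at 18 of 94 (19.1%, 11.8 to 28.6), those in pairs at 8 of 42 (19%, 8.60 to 34.1) and those in clusters of 3 to 5 at 7 of 68 (10.3%, 4.24 to 20.1), beside 19.7% over all coding genes. The largest clusters differed among themselves. On chromosome 7, from Zfp84 to Zfp146 (chr7:29768552-30169750), 1 of 15 genes was bound, Zfp790 at 4.12-fold. On chromosome 17 (chr17:21383748-22225616) 3 of 15 were bound (20%, 4.33 to 48.1), where Zfp942 and Zfp943 share 1 summit of 5.65-fold, 399 bp upstream of a start of Zfp942 and 291 bp downstream of one of Zfp943, and Zfp51 had 4.73-fold. On chromosome 13 (chr13:67038596-67553830) only Zfp712 of 14 genes was bound, at 5.52-fold, and on chromosome 7 from Zfp180 to Zfp94 (chr7:24081924-24316666) 0 of 10. The last of these allows a share of up to 30.8% by the exact interval.

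Other clusters stood apart from these. From Zfp553 to Zfp689 on chromosome 7 (chr7:127233061-127449158), 4 of 7 genes were bound, namely Zfp553, Zfp771, Zfp768 and Zfp747. From Zfp786 to Zfp746 on chromosome 6 (chr6:47819266-48086593), 4 of 7 were bound, namely Zfp398, Zfp282, Zfp777 and Zfp746. Both clusters were picked for their values. The KRAB pattern was carried by 4 of 7 and 3 of 7 of their genes, and their median CpG ratios were 0.703 and 0.849. In the 4 largest clusters it was carried by 12 of 15 genes from Zfp84 to Zfp146, all 15 of the chromosome 17 cluster, all 14 of the chromosome 13 cluster and 9 of 10 from Zfp180 to Zfp94, with median CpG ratios of 0.630, 0.468, 0.357 and 0.438. Among these 4 the chromosome 17 cluster had the most bound genes and the cluster from Zfp84 to Zfp146 the highest ratio. The counts of bound genes are small, and a relation between CpG ratio and binding over clusters was not tested. In the 26 clusters made up of KRAB genes alone, 8 of 107 genes were bound (7.48%, 3.28 to 14.2), and in all other clusters 25 of 97 (25.8%, 17.4 to 35.7), beside 19.7% over all coding genes.

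**Figure D4:**
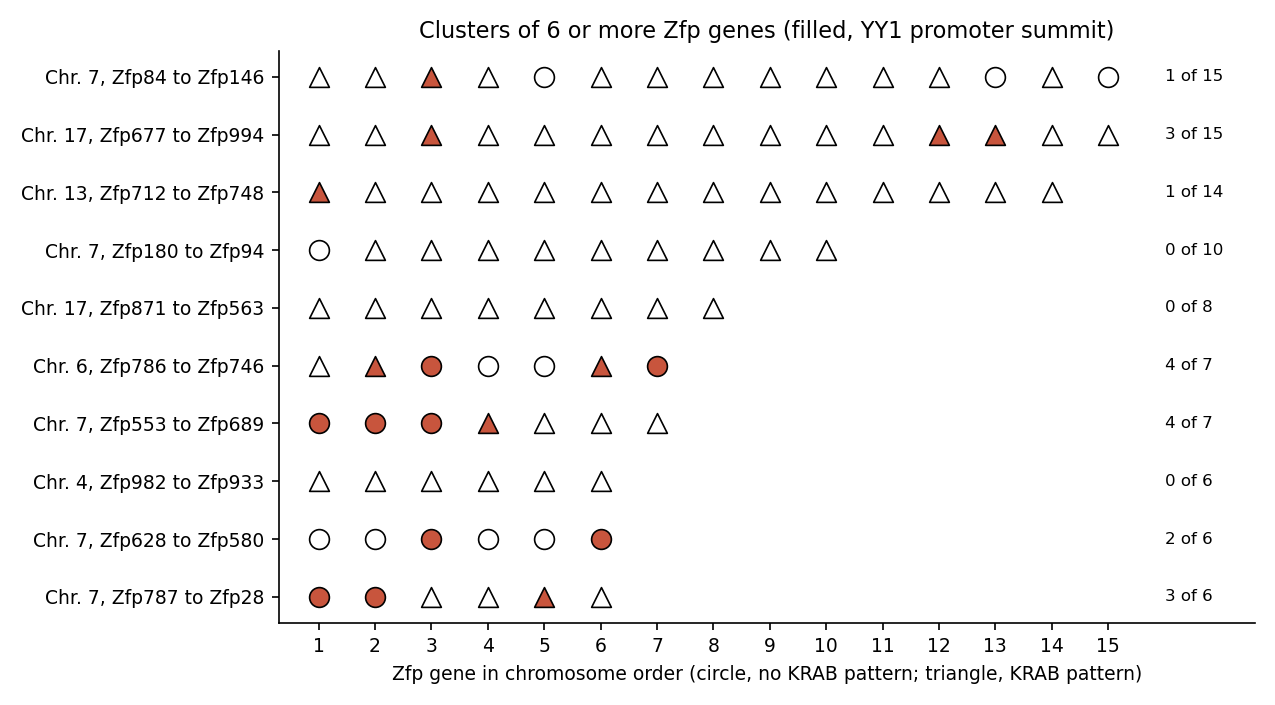
The 10 clusters of 6 or more Zfp genes, 1 row each, with genes in chromosome order along the horizontal axis. Triangles are genes with the KRAB pattern, circles those without, and filled symbols have a YY1 promoter summit, counted at the right of each row. Filled symbols are few in the 5 largest clusters and reach 4 of 7 in a cluster on chromosome 6 and another on chromosome 7.

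Peaks at bound Zfp genes were of ordinary height. The fold enrichment of the strongest promoter peak had a median of 5.13 (range 3.03 to 8.28), with a median of 14 fragments at the summit (range 9 to 30). The 3753 promoter peaks of all coding genes also had medians of 5.13-fold and 14 fragments, and reached 13.4-fold. Isolated genes had a median of 5.34-fold (interval of the median from order statistics 4.8 to 5.56) and 16 fragments, and clustered genes 4.73-fold (4.37 to 5.52) and 13 fragments, so that the intervals overlapped. The highest isolated peaks were at Zfp41 (8.28-fold, 20 fragments), Zfp532 (7.73-fold, 22 fragments), Zfp710 and Zfp740 (each 7.49-fold, 18 fragments) and Zfp143 (7.41-fold, 30 fragments). The highest clustered peaks were at Zfp580 (7.89-fold, 19 fragments), Zfp553 (7.49-fold, 18 fragments), Zfp777 (7.10-fold, 17 fragments), Zfp668 (6.72-fold, 19 fragments) and Zfp787 (5.71-fold, 16 fragments). The order by fold depends on the local background as well as on the fragments, since Zfp143 had the most fragments but a background of 3.19, against 1.54 at Zfp41, and it was not tested.

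At the lower end stood Zfp131 (3.03-fold, 11 fragments), Zfp451 (3.20-fold, 18 fragments), whose protein is a SUMO ligase, and Zfp800 (3.36-fold, 9 fragments) among the isolated genes. Among the clustered genes, Zfp524 and Zfp746 had 3.28-fold with 12 fragments each, and Zfp426 3.36-fold with 9 fragments. Zfp746, also known as PARIS, is a KRAB-type repressor regulated by the ubiquitin ligase parkin, although its protein did not match the pattern searched here. Of the 85 genes, 3 had a deposited q-value over 0.05: Zfp131 (0.0743), Zfp800 (0.0532) and Zfp426 (0.0532).

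The rule for a bound gene limits the summit to 1000 bp from a start. Within it the median distance was 122 bp (range 3 to 797), against 93 bp over the promoter peaks of all coding genes, and 37 of 85 summits lay within 100 bp (43.5%), against 52.3% of those peaks. These are unlike measures. The Zfp values take the strongest peak of each gene and the starts of that gene, whereas the others are counted per peak. Of the 85, 34 were upstream and 51 at or downstream of the start. Just inside the limit were Zfp827, 763 bp downstream, and Zfp282, 797 bp downstream. Just outside it were Zfp687, 1216 bp from its start, whose product works in a complex with that of Zfp592, and Zfp503, 1652 bp from its start, and both count as unbound. Summits within the gene body but beyond the window were found at 4 Zfp genes, Zfp697, Zfp771, Zfp703 and Zfp503, and Zfp771 and Zfp703 also had a promoter summit. For 165 of the 272 unbound genes the nearest summit was more than 100 kb away, and for 8 it was between 1 and 5 kb.

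**Figure D5:**
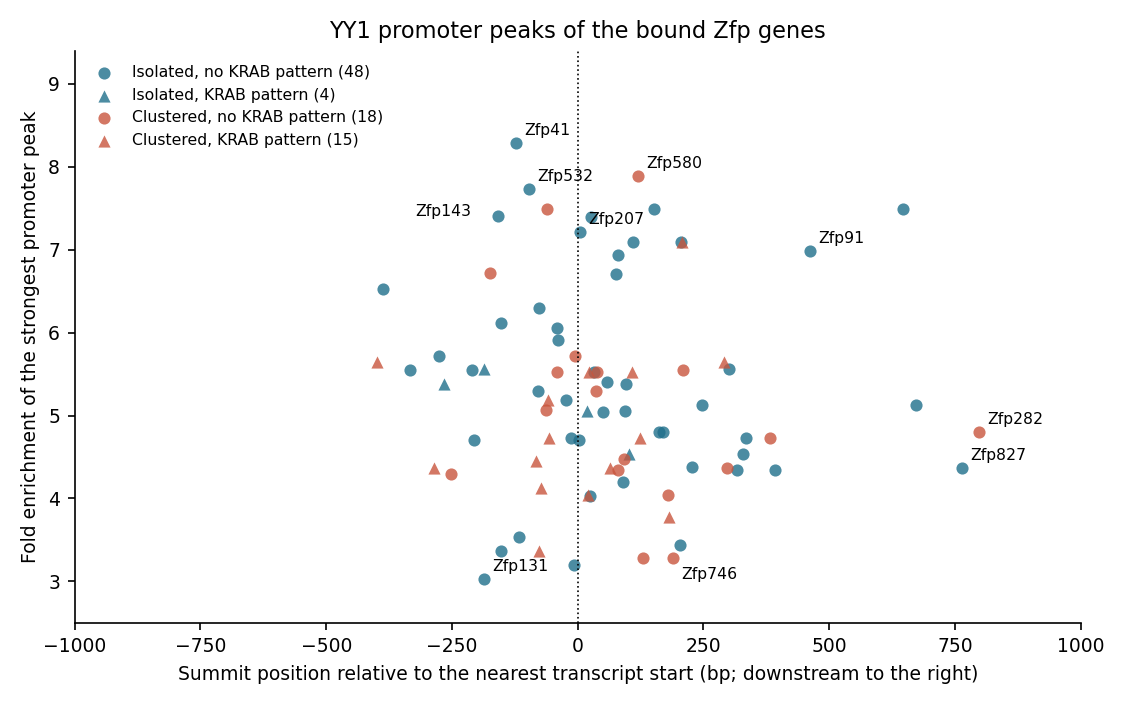
Fold enrichment of the strongest promoter peak at each of the 85 bound Zfp genes against the position of its summit relative to the nearest transcript start, in bp. Colour separates isolated from clustered genes and triangles mark the KRAB pattern. At 81 of the 85 genes the summit lies within 500 bp of a start, and the highest points are Zfp41 at 8.28-fold and Zfp580 at 7.89-fold.

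At 14 bound genes, 11 isolated and 3 clustered, the summit was nearer to the start of another gene than to that of the Zfp gene. At Zfp654 it lay 387 bp upstream and 43 bp from the start of Cggbp1, which encodes a CGG-repeat-binding protein. At Zfp277 it lay 275 bp upstream and 159 bp from Dock4, a guanine nucleotide exchange factor. At Zfp532 and Zfp777 the nearer start was that of a gene model without a name of its own, AC132307.3 at 5 bp and Gm24563 at 0 bp, and at Zfp942 it was that of Zfp943 at 291 bp. Zfp genes with the start of another coding gene within 1000 bp of their own were bound at 15 of 26 (57.7%, 36.9 to 76.6), and the others at 70 of 331 (21.1%, 16.9 to 25.9), 36.5 points apart (17.2 to 53.8). Among isolated genes the shares were 13 of 17 (76.5%, 50.1 to 93.2) and 39 of 136 (28.7%), 47.8 points apart (22.7 to 63.4), and among clustered genes 2 of 9 (22.2%, 2.81 to 60) and 31 of 195 (15.9%), 6.32 points apart with an interval from -10.6 to 39.1. Over all coding genes the share was 19.7%. Among all coding genes with another coding start so near it was not computed, so these gaps cannot be called particular to Zfp genes. A peak near the starts of 2 genes cannot be given to 1 of them. Without Zfp genes that have the start of any gene outside the list within 1000 bp, the difference between isolated and clustered genes was 9.49 points (0.0467 to 19.4), from shares of 24.5% and 15.1%, against 17.8 points over all Zfp genes.

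The motif was not more frequent than at other promoters with YY1. AANATGGC lay within 100 bp of the summit at 6 of 85 bound Zfp genes (7.06%, 2.63 to 14.7) and at 282 of 3753 promoter peaks of all coding genes (7.51%, 6.69 to 8.40). Of the 6 genes, 5 were isolated (9.62% of 52) and 1, Zfp668, was clustered (3.03% of 33), with intervals of 3.20 to 21.0 and 0.0767 to 15.8. The core ATGGC was within 100 bp at 28.2% of bound Zfp genes and 30.6% of promoter peaks. In windows from 250 bp upstream of the gene start to 49 bp downstream, AANATGGC occurred at 36 of 357 Zfp genes (10.1%, 7.16 to 13.7) and at 6.16% of all coding genes. It occurred there at 8 of 85 bound genes (9.41%) and 28 of 272 unbound ones (10.3%), so its presence did not separate bound from unbound Zfp genes. The sites printed above are letters in the reference and were not tested as binding sites.

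Of 19 Zfp genes with a well-known role, 8 were bound (42.1%, 20.3 to 66.5), all isolated and without the KRAB pattern. The list was drawn up with earlier results of these data known, and bound and unbound genes are both given. The share was 19.7% over all coding genes. Of the 15 listed genes that are isolated and without KRAB, 8 were bound (53.3%, 26.6 to 78.7), beside 46.2% of all isolated Zfp genes without KRAB. Zfp143, which encodes an activator of small nuclear RNA and housekeeping genes that also occurs at chromatin loop anchors, had 7.41-fold enrichment with 30 fragments, 158 bp upstream of a start (gene at chr7:110061217-110095394). Zfp207, whose product BuGZ loads Bub3 at kinetochores, had 7.21-fold with 18 fragments, 5 bp from its start. Zfp91, a ubiquitin ligase of the alternative NF-kB pathway, had 6.98-fold with 18 fragments, 461 bp downstream of its start. Zfp217, a co-repressor-associated oncogene product, had 6.12-fold with 22 fragments, 152 bp upstream of an internal start. These 4 were the strongest of the list.

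The other 4 were lower. Zfp638, which acts in adipocyte differentiation and in silencing of unintegrated retroviral DNA, had 5.40-fold with 13 fragments, and Zfp148, a repressor that binds GC boxes, had 5.30-fold with 20. Zfp281, a regulator of pluripotency, had 4.8-fold with 14 fragments. Zfp335, a part of a histone methyltransferase complex needed in neural development, had 4.38-fold with 25 fragments over a local background of 4.94, the highest background of the 8.

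No promoter summit was found at the other 11. They comprised the KRAB genes Zfp809, which silences retroviruses through their primer binding site, Zfp57, which protects imprints, Zfp568, which represses Igf2, and Zfp932, which acts on endogenous retroviruses. Their nearest summits were 154, 42.5, 168 and 101 kb from a start. They also comprised Zfp423, a factor of preadipocyte commitment (178 kb), Zfp521 (710 kb), Zfp467 (358 kb), Zfp106, an RNA-binding protein needed by motor neurons (607 kb), Zfp326, which links splicing to elongation (357 kb), Zfp410, an activator of Chd4 (45.1 kb), and Zfp36, the mRNA decay factor tristetraprolin (6.24 kb). The CpG ratio at the gene start had a median of 0.774 over the 8 bound genes (range 0.395 to 0.927) and of 0.691 over the 11 unbound ones (range 0.256 to 0.933). The lowest ratio of a bound gene was that of Zfp217, whose peak lies at an internal start and not where the ratio was taken. A call of unbound means that no summit passed the authors' peak limit at this depth, not that YY1 was absent.

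The co-repressors that KRAB proteins work through were listed beside them. Of 20 such genes, 11 had a promoter summit (55.0%, 31.5 to 76.9), with a median of 5.52-fold, against 19.7% over all coding genes, a difference of 35.3 points (14.5 to 54.5). Their CpG ratio was high, with a median of 0.830, although it again describes the gene start only. It was under 0.5 at the bound Trim28 (0.120) and Dnmt3a (0.434) and at the unbound Dnmt1 (0.0588) and Atf7ip (0.124). At 0.75 and over, 9 of 14 were bound (64.3%, 35.1 to 87.2), an interval that includes the 46.4% of all coding genes in that bin. The 11 bound genes were Dnmt3a, a DNA methyltransferase (7.49-fold), Tasor and Pphln1 of the HUSH silencing complex (7.45- and 6.40-fold), the heterochromatin proteins Cbx3 and Cbx1 (6.39- and 4.7-fold), Trim28 and Resf1 (5.52-fold each), the deacetylase Hdac2 (5.38-fold), the remodellers Chd3 and Smarcad1 (4.81- and 4.29-fold) and the methyltransferase Setdb1 (4.48-fold). The 9 without a summit were Atf7ip, Cbx5, Morc3, Uhrf1, Dnmt1, Dnmt3b, Hdac1, Chd4 and Mphosph8.

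Repeated sequence moved with the unbound genes. Of the 357 genes, 70 had more than 10% of the 50-base stretches within 500 bp of their start repeated elsewhere in the genome, and 5 of these were bound (7.14%, 2.36 to 15.9), against 80 of 287 of the others (27.9%, 22.8 to 33.4). Reads from repeated stretches map to several places. Among the genes with little repeat, the isolated and clustered shares were 38.1% and 19%, and the difference of 19.1 points was as large as over all genes. The part of mappability in the low share of the 70 genes was not tested.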

How the data were processed

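The data were the peaks of 1 YY1 ChIP-seq library from pooled mouse MuSCs. The authors cleaned the reads, aligned them with bowtie2 to mm10, discarded redundant ones and called peaks over 1 background library with MACS2 (p-value limit 0.0001), in versions not given in the sources used here. Fold enrichment, as deposited, is the authors' ratio of fragments at the summit to local background, with 1 added to both. Each peak was deposited with the −log10 p-value and the −log10 q-value of MACS2 and an integer score, which was not read. A whole number of fragments was recovered for all 4681 peaks (within 0.001 of −log10 p), and the local background gave a depth of 13357713 fragments. Weaker sites might pass at a greater depth, which was not tested.

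Summits were placed against GENCODE M21 starts on GRCm38, and 356 RefSeq promoters matched the reference base for base. The 7 Zfp genes on other chromosomes were left out. Finger patterns (C, 2 to 4 residues, C, 12 residues, H, 3 to 5 residues, H) and the KRAB A box pattern (LY, any 2, VM, any 1, E, then N, T or S, or DV, any 3, F, S or T, any 2, EW) were searched in the longest GENCODE coding sequence of each gene, translated from the reference, in place of the planned RefSeq proteins. Shares have 95% exact binomial (Clopper-Pearson) and differences Newcombe intervals, for counting error only. In all, shares were computed for 118 groups of genes, with 25 more at the gene start alone, and differences for 28 pairs, with no test and no adjustment.

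The members and lists were chosen with earlier results of these data known. Genes were named for the highest or lowest fold enrichment, distance just inside or outside the limit, membership of the 4 largest clusters, a known role, the motif, or a summit nearer another gene. Printed peak windows were limited to those outside annotated UTRs, and 1 further window is not reported here. Any other gene was picked on sight of its values. Functions were tested on simulated data. Software comprised samtools 1.23.1 and Python 3.11.15 with matplotlib 3.10.9, pysam 0.24.0, scipy 1.17.1 and numpy 2.4.6.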

Additional observations from a re-analysis of the deposited data

How the results depend on the processing

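No paired analysis was possible because YY1 was measured in a single library, and no replicate could be left out. The difference between isolated and clustered genes ranged from -1.33 to 24.3 points over 19 alternatives. It was -1.33 points among genes with the KRAB pattern, 7.02 among genes without it and 7.54 at CpG ratios under 0.5 (where summits mostly lay away from the gene start), and the cause was not tested. These 3 subsets were chosen after the data were seen, as were the limits on repeats, on a CpG ratio of 0.5 or more and to genes outside the 4 largest clusters. Leaving out genes that share a start region with a gene outside the list gave 9.49 points (0.0467 to 19.4), and the cause was not tested. In the other 15 alternatives it ranged from 12.2 to 24.3 points.

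Windows from 1000 bp upstream to 100 bp downstream gave 17.4% of all and 24.8% of isolated Zfp genes bound and a median distance of 82 bp, since they admit fewer summits. A fold enrichment of at least 5 gave 13.4%, 21.6% of isolated and 7.35% of clustered genes and a median of 5.65-fold, since it admits fewer peaks. Without shared starts the shares were 18.8% of all and 24.5% of isolated genes. The share over all coding genes was not computed under these settings, so they cannot be set against the 19.7% of the main rule. The motif share was 16.5% within 250 bp of the summit and 28.2% for the core ATGGC, since both admit more matches. At the low end the weakest bound Zfp promoter had 9 fragments and the weakest peak of the library 8, and the part of depth was not tested.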
